A study of Homo sapiens with 6 samples.

Results

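The liprins are a small family of cytoplasmic scaffold proteins, and the human family examined here has 6 genes, 4 for liprin-alpha proteins (PPFIA1, PPFIA2, PPFIA3 and PPFIA4) and 2 for liprin-beta proteins (PPFIBP1 and PPFIBP2). Members were taken by gene symbol from a table of 59653 genes, and all 6 were found in it. PPFIA4 was chosen by its measured difference between siPVT1 and siControl, which was known to be large. Its values between the groups are therefore given as a description without a test, and the other 5 genes entered by family name. RNA was sequenced from SK-OV3, an ovarian cancer line of human origin labelled wildtype, 48 h after transfection. In siControl the cells received a scrambled, non-targeting siRNA pool (n = 3), and in siPVT1 they received 1 pool of siRNAs against the lncRNA PVT1 (n = 3), so that other effects of this pool and the loss of PVT1 itself cannot be told apart. The labels number the replicates without saying that they are separate cultures, so p-values measure the spread between these libraries, which may be technical.

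Liprin-alpha proteins bind the cytoplasmic part of LAR-type receptor tyrosine phosphatases and join them to large scaffolds. In neurons, liprin-alpha proteins organize the presynaptic active zone with ELKS, RIM and CASK proteins. In epithelial and tumor cells, PPFIA1 and PPFIBP1 belong to a cortical complex with ELKS, LL5-beta and KANK proteins that holds microtubule ends near focal adhesions. PPFIA1 is the broadly expressed alpha member, PPFIA2 and PPFIA3 are best known from brain, and PPFIA4 is also found in published sets of hypoxia-responsive genes.

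The family is spread over 4 chromosomes in GENCODE v44 on GRCh38. PPFIA4 (ENSG00000143847) lies on the plus strand of chromosome 1 from 203026491 to 203078740, with 30 exons in its canonical transcript, and no other annotated gene overlaps it. PPFIA3 (ENSG00000177380) lies on chromosome 19 from 49119544 to 49151026 and also has no overlapping gene. PPFIA1 (ENSG00000131626) and PPFIBP2 (ENSG00000166387) lie apart on chromosome 11, from 70270690 to 70385312 and from 7513298 to 7657127. PPFIA2 (ENSG00000139220) and PPFIBP1 (ENSG00000110841) lie on chromosome 12, from 81257975 to 81759553 and from 27523431 to 27695564.

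Reads of these paralogs could be told apart at the length sequenced. Of all distinct stretches of 75 bases, the read length, in the annotated transcripts of each member, 0 were shared with another member. The 10417 stretches of PPFIA4 and the 6618 of PPFIA3 were shared with no other gene on either strand. In PPFIA2, 16.9% of the 9547 stretches also occurred on the opposite strand in ACSS3, a neighbor that encodes an acyl-CoA synthetase. The strand setting of the counting is not given in the sources used here, so whether PPFIA2 and ACSS3 reads from that stretch were told apart is not known. In the other 3 members at most 2.75% of stretches were shared with another gene on a given strand.

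The 250 bases before the annotated start of PPFIA4 are shown because the gene with the large difference has a CACGTG there. This palindrome holds ACGTG, a form of the core of the hypoxia response element, on both strands. Other forms of that core were not searched. Sequences are from RefSeq on GRCh38.p14, and all 6 members matched. Capitals mark ACGTG or its reverse complement CACGT, which overlap in CACGTG. The first line is chr1:203026241-203026490 on the plus strand, and the second, from PPFIBP2, is chr11:7513924-7513953 on the plus strand.
PPFIA4: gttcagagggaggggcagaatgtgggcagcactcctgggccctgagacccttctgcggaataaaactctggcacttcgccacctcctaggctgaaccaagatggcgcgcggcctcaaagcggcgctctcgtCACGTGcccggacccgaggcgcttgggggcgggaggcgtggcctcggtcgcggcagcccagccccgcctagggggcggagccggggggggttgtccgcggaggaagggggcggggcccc
PPFIBP2: tccccgccccgtCACGTGggcgccggcccc
PPFIA1 and PPFIA2 each held ACGTG once on 1 strand in the first window listed for the gene, and PPFIA3 and PPFIBP1 held none in a window that runs from 250 bases before to 50 after the start. Over all 35116 windows of that length, 21.4% held ACGTG on either strand and 7.26% held CACGTG. Among the first windows of the 18116 genes also in the count table, 23.3% and 8.45% did. A match is a description of these letters, and binding of any factor, from the hypoxia response or another, was not measured.

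The libraries held 28383171 to 35059576 counts. Of the 19008 genes that reached 5 normalized counts in 3 or more libraries, 4076 (21.4%) passed both thresholds. These were an adjusted p under 0.05 from edgeR's quasi-likelihood test and a log2 fold change (log2FC, siPVT1 over siControl) of at least 1 in size. The study applied the same thresholds with DESeq2, which called 3777 genes here. Its paper reports far fewer differentially expressed genes than either count, and the reason was not tested. The value after ± beside a log2FC is its standard error (SE). Of all genes tested, 11.6% were higher and 9.86% lower in siPVT1. The higher genes made 54.0% of those called, and 43.8% when libraries were scaled by the total count alone, which moved the median log2FC of all genes from -0.013 to -0.148. Replicates differed beyond sampling noise, most between siPVT1 replicates 1 and 3, where chi-square divided by its degrees of freedom was 45.9, against 1.76 to 5.75 between siControl libraries. The targeted PVT1 was lower in 3 of 3 siPVT1 libraries, with a log2FC of -0.74 ± 0.10 (SE), with adjusted p = 0.000465. This is 0.60 of its siControl level, so that PVT1 itself did not reach the fold threshold. Of 8 markers set for the ovarian carcinoma line, all 8 passed the filter on low counts, with 1 higher (KRT19, log2FC 2.28) and 1 lower (WT1, log2FC -1.03) past both thresholds. PAX8 had a log2FC of 0.99, just under the threshold, and MUC16 was scattered over 17.7 to 633 normalized counts in siPVT1. The summed normalized count of the 8 was 20956 to 22881 in siControl and 27897 to 31129 in siPVT1, and the part of this in the results on liprins was not tested. Of 8 neuron markers 4 passed the filter, and 2 of these were higher past both thresholds (SYT1 and SNAP25). RBFOX3 (log2FC 0.97, adjusted p = 0.0103) and SYP (log2FC 0.94, adjusted p = 0.0306) also rose, without reaching the fold threshold. The 8 neuron markers had a summed normalized count of 651 to 705 in siControl and 1116 to 2042 in siPVT1. DCX, STMN2, ELAVL4 and NEFL were below the filter. The part of these markers in the results on liprins was not tested.

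PPFIA4 was the scarcest liprin in siControl, with 6, 10 and 11 counts in its replicates 1, 2 and 3. In siPVT1 it had 508, 519 and 636 counts. After normalization for library size these were 5.67, 10.3 and 10.1 in siControl and 560.5, 566 and 591 in siPVT1. The lowest siPVT1 library was far above the highest siControl library, and the 3 siPVT1 libraries lay close together. The mean went from 8.69 ± 2.62 (SD, n = 3) to 572 ± 16.6 (SD, n = 3), a log2FC of 6.03 ± 0.16 (SE), which is 65.2-fold. By this value PPFIA4 ranked 15 among the 19008 genes. The coefficient of variation was 30.2% in siControl, where counting error alone at a mean of 9 counts gives 33.3%. In siPVT1 it was 2.89%, where counting error gives 4.25%, so that libraries of either group differed by no more than counting allows. The size of the fold rests on few counts in siControl. Leaving out 1 library at a time gave log2FC values from 5.78 to 6.15. In bulk RNA, more cells with PPFIA4 and more PPFIA4 RNA per cell cannot be told apart.

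**Figure D1:**
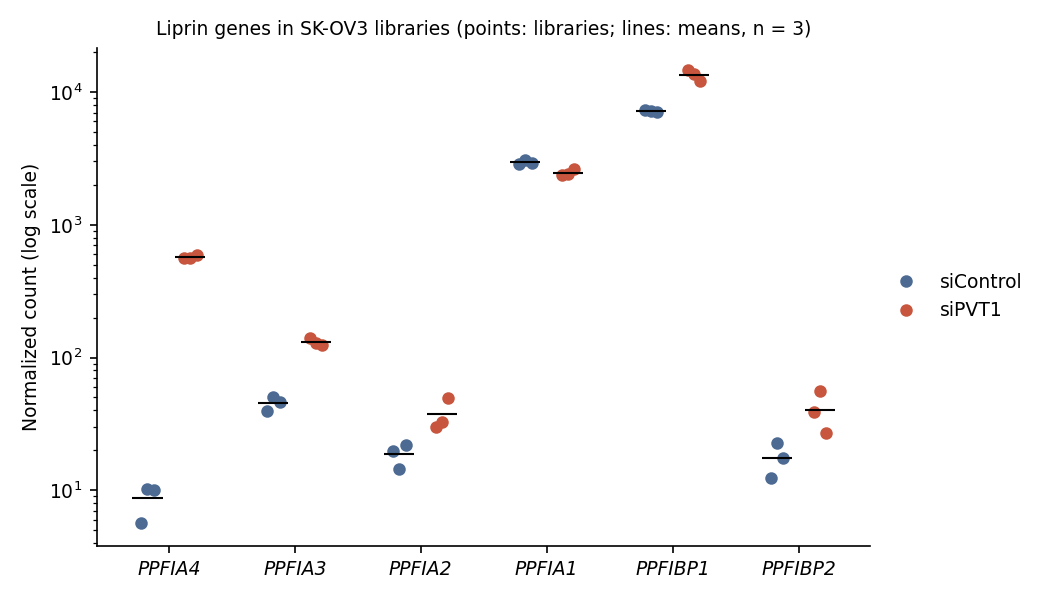
Normalized counts of the 6 liprin genes in each library on a log scale, with 3 siControl and 3 siPVT1 points per gene and a line at each mean. PPFIA4 sits between 5.67 and 10.3 in siControl and between 560.5 and 591 in siPVT1, a larger gap on this axis than in any other member.

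Among the 5 paralogs, 2 passed both thresholds as higher (PPFIA3 and PPFIBP2), where 11.6% of all genes did. By the adjusted p alone, 4 paralogs rose and 1 fell, where 29.2% of all genes did in each direction and 58.4% in either. In each of the 5 the libraries of the groups did not overlap, which held for 66.3% of all genes (32.8% higher and 33.5% lower in siPVT1), so that separation by itself sets no liprin apart.

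PPFIA3, the alpha member known from brain, rose most of these 5. Its siControl libraries had 39.7, 50.4 and 46.0 normalized counts, and its siPVT1 libraries had 140.1, 129.7 and 125. All siPVT1 libraries were well above all siControl libraries. The mean went from 45.4 ± 5.40 to 131 ± 7.91 (SD, n = 3 each), a log2FC of 1.53 ± 0.15 (SE), with adjusted p = 7.07e-05.

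PPFIA2, the other alpha member known from brain, was near the lower limit of detection. Its normalized counts were 19.8, 14.4 and 22.1 in siControl and 29.8, 32.7 and 49.3 in siPVT1. The highest siControl and the lowest siPVT1 library were close. The log2FC was 0.99 ± 0.29 (SE), with adjusted p = 0.0195, so that PPFIA2 rose by the adjusted p without reaching the fold threshold. The adjusted p was 0.0516 without siControl replicate 1 and 0.0653 without siControl replicate 2. ACSS3, with which PPFIA2 shares sequence on opposite strands, had a log2FC of 0.94 ± 0.16 (SE), with adjusted p = 0.00133 and more counts than PPFIA2, from a mean of 288 ± 4.93 to 554 ± 126 (SD, n = 3 each).

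PPFIA1, the abundant alpha member, moved the other way. Its normalized counts were 2878, 3069 and 2919 in siControl and 2371, 2424 and 2631 in siPVT1. The highest siPVT1 library was below the lowest siControl library, by a modest amount. The mean went from 2956 ± 101 to 2475 ± 137 (SD, n = 3 each), a log2FC of -0.26 ± 0.06 (SE), with adjusted p = 0.008. Total count scaling gave -0.39, with the same direction.

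PPFIBP1, the beta member of the cortical complex and the liprin with the most counts, had 7261, 7171 and 7127 normalized counts in siControl and 14551, 13681 and 12027 in siPVT1. The siControl libraries lay within a narrow range, and the siPVT1 libraries spread more and stayed above all of them. Its log2FC was 0.90 ± 0.07 (SE), with adjusted p = 3.12e-05, a rise of 1.87-fold that did not reach the fold threshold. In normalized counts the difference of means, from 7186 ± 68.6 to 13419.5 ± 1282 (SD, n = 3 each), was the largest of the family, because PPFIBP1 is so abundant.

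PPFIBP2, the second beta member, had few counts. Normalized counts were 12.3, 22.6 and 17.5 in siControl and 38.6, 55.6 and 27.0 in siPVT1, with siPVT1 replicate 3 just above siControl replicate 2. The log2FC was 1.20 ± 0.35 (SE), with adjusted p = 0.0181. This call rests on single libraries. Without siControl replicate 1 the log2FC was 0.99 (adjusted p = 0.0669), without siControl replicate 3 it was 1.19 (adjusted p = 0.0541), and without siPVT1 replicate 2 it was 0.91 (adjusted p = 0.0664). PPFIBP2 and PPFIA4 both hold the CACGTG shown above, and their log2FC values were 1.20 and 6.03. PPFIBP2 holds it only in the first of the 5 windows listed for it. Which start these cells use was not tested.

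Levels of different genes were compared as normalized counts per kilobase of the canonical transcript, which is 6508 bases for PPFIA4 and 3328 to 5983 bases for the other members. In siControl the order was PPFIBP1 (1201 ± 11.5), PPFIA1 (564 ± 19.2), PPFIA3 (9.90 ± 1.18), PPFIBP2 (5.25 ± 1.56), PPFIA2 (3.31 ± 0.696) and PPFIA4 (1.34 ± 0.403, SD, n = 3 each). Of neighbors in this order, only PPFIBP2 and PPFIA2 overlapped over the libraries. In siPVT1 PPFIA4 was at rank 3, at 88.0 ± 2.54 per kilobase, below PPFIBP1 (2243 ± 214) and PPFIA1 (472 ± 26.2) and above PPFIA3 (28.7 ± 1.73), PPFIBP2 (12.1 ± 4.32) and PPFIA2 (6.57 ± 1.85, SD, n = 3 each). PPFIBP2 and PPFIA2 were again the only neighbors whose libraries overlapped. The move of PPFIA4 from rank 6 to rank 3 was the same with the length of all annotated exons in place of the canonical transcript.

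As shares of the length-scaled counts of all 6 liprins, PPFIBP1 took 67.3% ± 0.921 in siControl and 78.6% ± 2.38 in siPVT1, and PPFIA1 took 31.6% ± 0.788 and 16.7% ± 2.06 (SD, n = 3 each). The abundant pair thus made up most liprin RNA in both groups. PPFIA4 took 0.0489%, 0.0875% and 0.0879% in the siControl libraries and 2.85%, 3.01% and 3.43% in the siPVT1 libraries. Summed over the 4 alpha genes, the level per kilobase was 579 ± 19.97 in siControl and 596 ± 29.1 in siPVT1 (SD, n = 3 each), and the libraries of the groups overlapped. Without PPFIA4 this sum was 577 ± 19.7 and 508 ± 26.6, lower in every siPVT1 library. With the length of all annotated exons, the sum of the 4 alpha genes was 263 ± 9.18 and 295 ± 13.6 and the groups did not overlap, and without PPFIA4 it was 262 ± 8.98 and 237 ± 11.9 (SD, n = 3 each), so that whether the summed alpha level differs depends on the length used. The sum of the beta genes went from 1206 ± 10.5 to 2255 ± 217 (SD, n = 3 each). These sums are descriptions, since PPFIA4 was chosen for its difference.

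**Figure D2:**
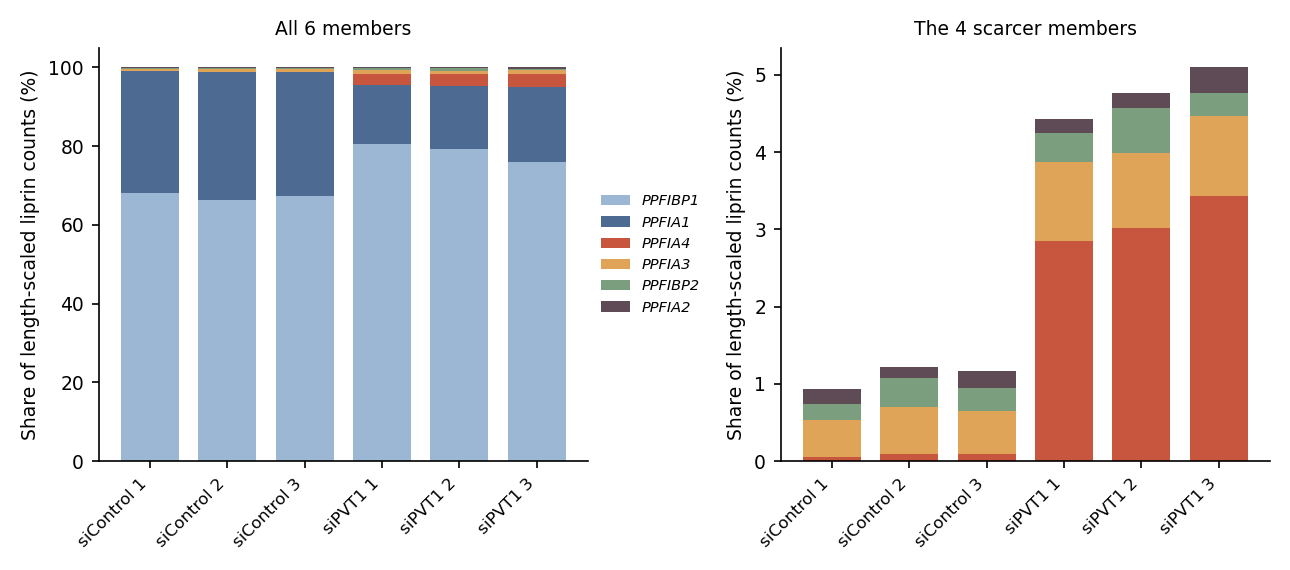
Share in percent of each member in the length-scaled counts of the 6 liprins, one bar per library, for all members (left) and for the 4 scarcer members on an enlarged axis (right). PPFIA4 takes 2.85% to 3.43% in siPVT1 and under 0.1% in siControl, and PPFIBP1 takes the largest share in every library.

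Of the 3 LAR-type phosphatases, the receptors that liprin-alpha proteins bind, 2 were higher past both thresholds (PTPRF and PTPRS), against 11.6% of all genes. PTPRF, also called LAR, had 9864, 9833 and 9719 normalized counts in siControl and 22004, 20226.5 and 19513 in siPVT1, with no overlap. Its log2FC of 1.07 ± 0.06 (SE, adjusted p = 5.01e-06) was close to the threshold, and with total count scaling only 1 of the 3 receptors was called. PTPRS rose from a mean of 283 ± 25.8 to 1314 ± 293 (SD, n = 3 each), a log2FC of 2.22 ± 0.17 (SE), with adjusted p = 2.46e-05. PTPRD was scarce, with 2.76 to 8.23 normalized counts in siControl and 6.51 to 13.2 in siPVT1, and did not pass the test (adjusted p = 0.377).

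Of 27 active zone and scaffold partners, 24 passed the filter on low counts, and 5 were higher and 2 lower past both thresholds, where 11.6% of all genes were higher, 9.86% lower and 21.4% either. The 7 of 24 called were near that share. Their median log2FC was 0.26, against -0.013 for all genes. The RIM genes, whose products tether synaptic vesicles and calcium channels, split in direction. RIMS3 had a mean normalized count of 53.0 ± 4.98 in siControl and rose to 555 ± 41.1 in siPVT1 (SD, n = 3 each), a log2FC of 3.39 ± 0.11 (SE), with adjusted p = 8.92e-07. RIMS1 rose as well (log2FC 3.29 ± 0.27, SE, adjusted p = 3.14e-05). RIMS2 fell from 1284 ± 28.1 to 599.9 ± 63.9 (SD, n = 3 each), a log2FC of -1.10 ± 0.09 (SE), with adjusted p = 2.53e-05. CASK, a membrane-associated scaffold kinase that binds liprin-alpha, rose with a log2FC of 1.32 ± 0.08 (SE), with adjusted p = 7.52e-06. APBA1, an adaptor that binds CASK, rose with 1.21 ± 0.22 (SE, adjusted p = 0.00187). The remaining called genes were TANC2, a scaffold, which rose (1.19), and PCLO, a large active zone protein, which fell (-1.08). RIMS2, TANC2 and PCLO were named after their values were seen.

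In the cortical microtubule complex, all 15 genes were tested, with 2 higher and 1 lower past both thresholds and a median log2FC of 0.045, so that the share called, 3 of 15, was near the 21.4% of all genes. The kinesins KIF21A and KIF21B, motors that restrain microtubule growth, moved in opposite directions. KIF21A had a mean normalized count of 2308 ± 27.9 in siControl and fell to 855 ± 117 in siPVT1 (SD, n = 3 each), a log2FC of -1.43 ± 0.10 (SE), with adjusted p = 1.33e-05. KIF21B rose from 591 ± 20.1 to 1787 ± 128 (SD, n = 3 each), a log2FC of 1.60 ± 0.07 (SE), with adjusted p = 2.53e-06. KANK3, a member of the family that links talin to this complex, rose from 22.6 ± 3.61 to 64.2 ± 19.7 (SD, n = 3 each, log2FC 1.503, adjusted p = 0.002). Of the 5 B56 subunits of the phosphatase PP2A, which bind liprins, PPP2R5B was higher past both thresholds (log2FC 1.16 ± 0.10, SE, adjusted p = 4.13e-05), again near the share of all genes.

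**Figure D3:**
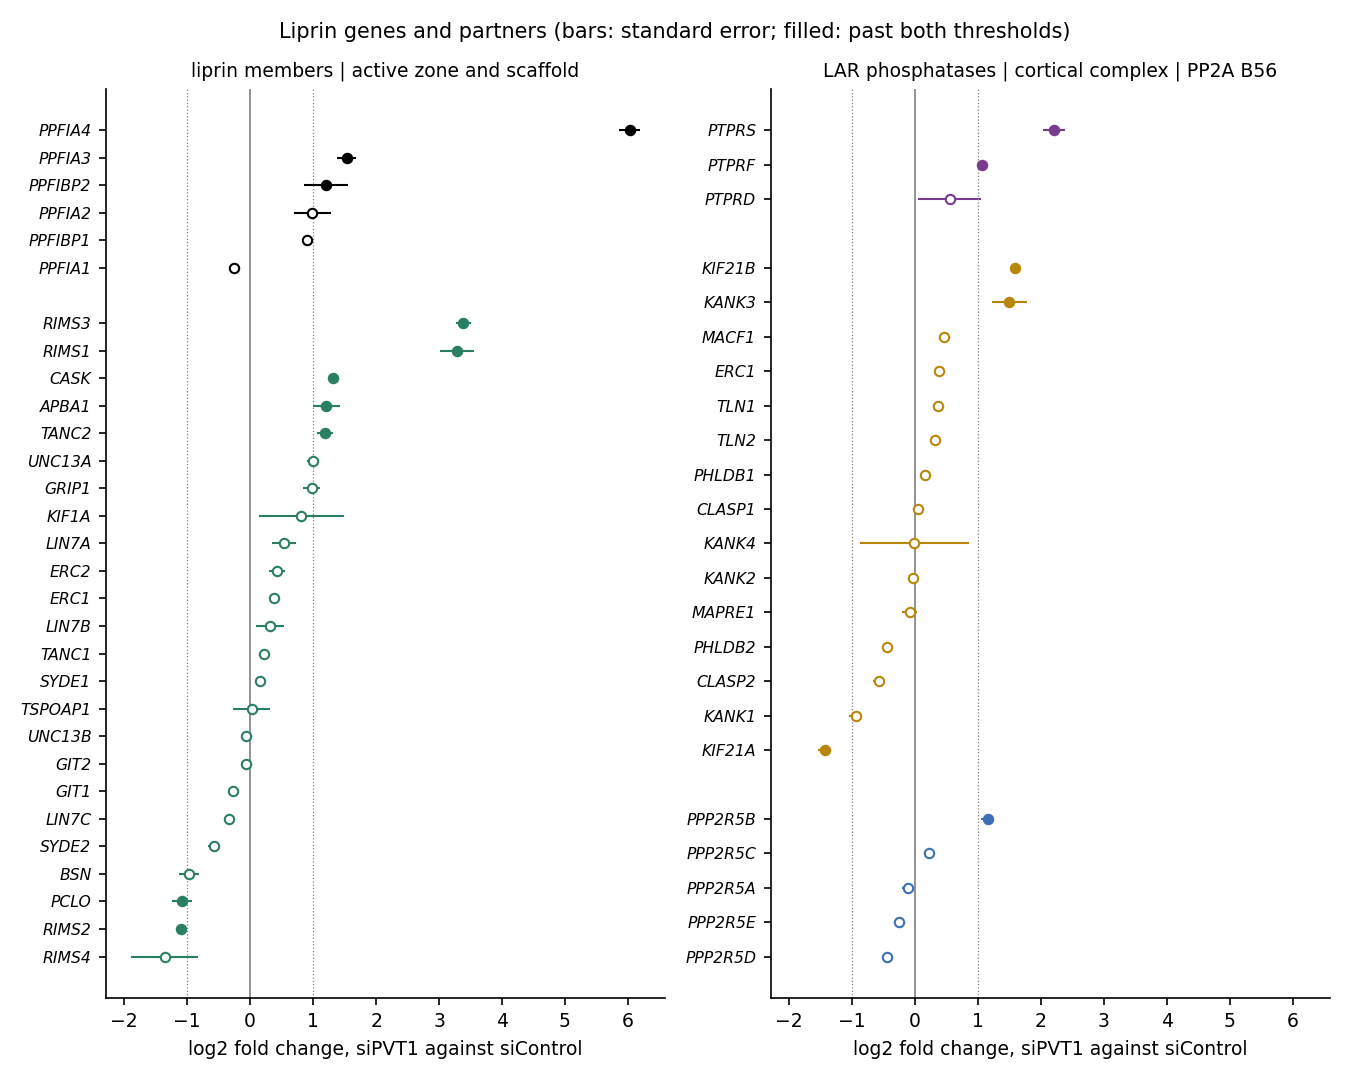
Log2FC of siPVT1 against siControl for the liprin genes and for each tested gene of the partner lists, with standard errors as bars and filled points past both thresholds. PPFIA4, at 6.03, lies beyond all partners, the highest of which is RIMS3 at 3.39.

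All 10 genes of a short hypoxia list were higher past both thresholds in siPVT1, where 11.6% of all genes were, with log2FC values from 1.39 to 4.80 and a median of 2.23. The 4 largest were CA9, BNIP3, ANKRD37 and NDRG1. CA9, a carbonic anhydrase, had at most 1 count in each siControl library and was at least 10.5-fold higher in siPVT1, taking 3 counts per library as the floor. BNIP3, a mitophagy receptor, had 14084, 12657.5 and 12357 normalized counts in siPVT1 replicates 1, 2 and 3. NDRG1, a stress-induced gene, had 53467, 34684 and 18824 in the same libraries, and ANKRD37 had 351, 244 and 197. These 3 genes were highest in replicate 1 and lowest in replicate 3, while the PPFIA4 libraries (560.5, 566 and 591) differed by no more than counting error. The list was written with the higher level of hypoxia genes in these libraries known, so its count is no independent evidence.

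Of the 5 nearest protein-coding genes on each side of the start of PPFIA4, 6 were tested and 0 passed both thresholds in edgeR or in DESeq2, where 21.4% of all genes did in edgeR. At an unadjusted p under 0.05, 4 of the 6 differed, 1 higher (ADIPOR1) and 3 lower, near the 63% of all genes that did. The nearest tested gene upstream, TMEM183A, starts 19.1 kb away and had 1170.1 ± 30.7 normalized counts in siControl and 1202 ± 67.1 in siPVT1 (SD, n = 3 each), a log2FC of 0.039 ± 0.066 (SE), with adjusted p = 0.644. The nearest tested gene downstream, the adenosine receptor gene ADORA1, starts 64.2 kb away and fell from 39.1 ± 0.898 to 24.4 ± 4.95 (SD, n = 3 each), a log2FC of -0.68 ± 0.23 (SE), with adjusted p = 0.0307.

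**Figure D4:**
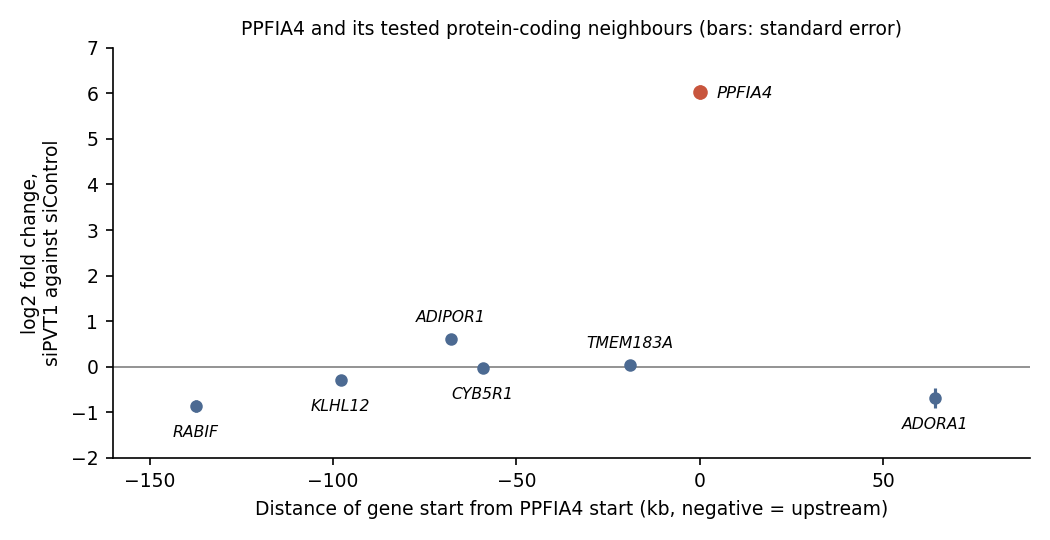
Log2FC with its standard error for PPFIA4 and its 6 tested protein-coding neighbors, against the distance in kb of each gene's start from that of PPFIA4. The neighbors lie between -0.86 and 0.61, and PPFIA4 lies at 6.03.

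By the root mean square difference of log2 CPM profiles over the 6 libraries, each centered on its siControl mean, the genes nearest to PPFIA4 were PTGES (0.430), CSF2 (0.445), DEPP1 (0.605), MIR210HG (0.641) and CCL3 (0.662). PTGES encodes a prostaglandin E synthase, CSF2 and CCL3 encode secreted cytokines, DEPP1 is a FOXO-regulated gene and MIR210HG is the host RNA of a hypoxia-induced miRNA. All 5 were low in siControl relative to siPVT1. DEPP1 had 3514, 2128 and 892 normalized counts in siPVT1 replicates 1, 2 and 3, and PTGES had 545, 461 and 290.1, both with a wider spread than PPFIA4. Among liprins the nearest was PPFIA3, which ranked 1024 with a difference of 3.03. By log2FC alone PPFIA3 ranked 1185 among all genes tested. The choice of these 5 genes depends on the count added before taking logarithms. With 0.5 in place of 2, 1 of the 5 remained among the nearest 5. Since profiles are centered on siControl, the measure mostly reflects how close the log2FC of a gene is to that of PPFIA4. The 5 genes had log2FC values from 5.01 (CCL3) to 7.02 (MIR210HG). PPFIA4 was chosen by this same difference and the libraries share groups and depth, so that the measure is only a description.

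**Figure D5:**
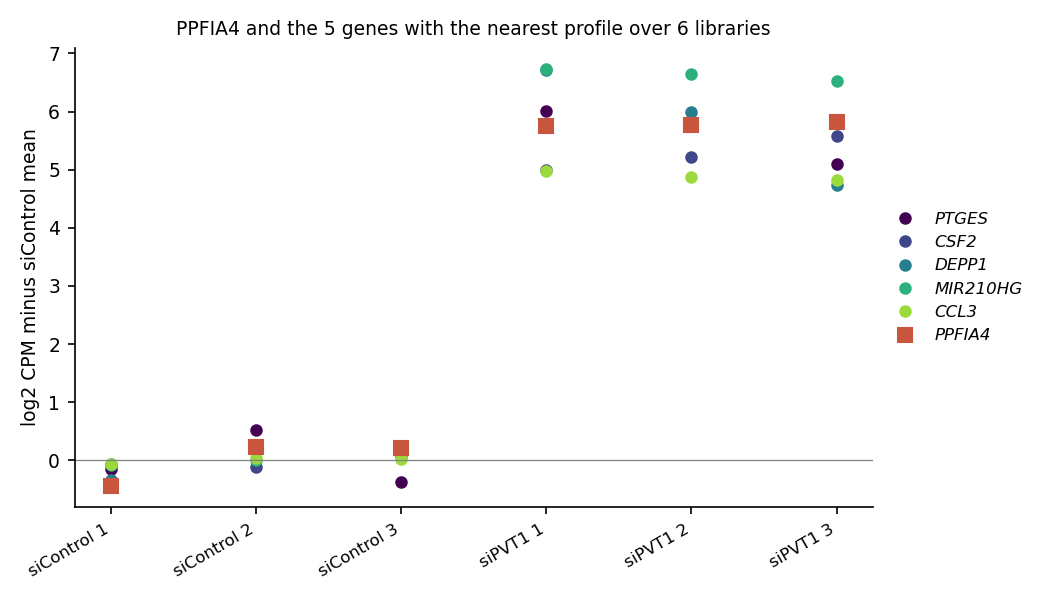
Log2 CPM minus the siControl mean for PPFIA4 (squares) and the 5 genes with the nearest profile (circles) in each of the 6 libraries. PPFIA4 lies between 5.75 and 5.83 in all siPVT1 libraries, and DEPP1 spreads from 4.74 to 6.72.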

How the data were processed

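RNA of SK-OV3 cells was sequenced in 6 libraries with 75-base single-end reads. The authors aligned the reads with STAR 2.7.3a to GENCODE transcripts of GRCh38.p13 and deposited estimated counts from Salmon 0.14.1 (versions per the submitters' processing notes) for each gene symbol, not normalized and rounded to whole numbers. Each column was matched to a sample by its description label. Library totals ranged from 28383171 to 35059576. From these expected counts, the groups were compared by the quasi-likelihood test of edgeR 4.0.16 in R 4.3.3, with TMM factors and no term beside the siRNA, in the 19008 genes that reached 5 normalized counts in 3 or more libraries. P-values were adjusted over all 19008 genes by Benjamini-Hochberg, and standard errors come from the ratio of each log2 fold change to the root of its F. Normalized counts are counts divided by the effective library size relative to its geometric mean. The test was checked on simulated data first, in which far fewer genes differed than were called here. Lengths, positions and neighbors came from GENCODE v44, and sequences from RefSeq tables on GRCh38.p14. Members and lists were chosen with earlier results of these data known. The genes named were the 6 members, PVT1, the LAR-type receptors, up to 4 called genes of each list with the largest change, the nearest tested neighbors and the 5 nearest profiles. Alternatives were DESeq2 1.42.0, its size factors in edgeR, total count scaling, edgeR without the filter or with filterByExpr, a block for the replicate number, leaving out single libraries, exon length and another prior count. Protein sequences and single transcripts were not analysed here.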

Additional observations from a re-analysis of the deposited data

How the results depend on the processing

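Over 19 results and 203 alternative values, 192 were rated the same, and no log2 fold change of a liprin or of PVT1 changed sign. For a tested gene this means the same direction and side of the thresholds. For a value without a test it means an equal rank or a shift within the spread of libraries. For a count of genes it means only a similar size, so that genes did cross thresholds there. Leaving out a library of the other group could not change the share or rank of PPFIA4 in a group. Those values are also counted as the same and are no check. Calls over all genes ranged from 3515 to 4533, and those of the active zone list from 7 to 9. Total count scaling turned the split of all called genes, from 2202 higher and 1874 lower to 1834 and 2357. PPFIA4 kept a log2 fold change between 5.78 and 6.15 and PPFIA3 between 1.40 and 1.60. With 1 library left out, the log2 fold change of PPFIA2 lay between 0.73 and 1.13 and passed both thresholds without siControl replicate 3, siPVT1 replicate 1 or siPVT1 replicate 2. That of PPFIBP2 lay between 0.91 and 1.44 and missed a threshold in 3 of these 6 fits. Both genes have few counts, and the cause was not tested. Total count scaling left 1 of the 3 LAR-type receptors called. With the length of all annotated exons, the share of PPFIA4 was 0.102% in siControl and 4.09% in siPVT1. With a prior count of 0.5, 1 of the 5 profiles nearest to PPFIA4 was shared with the list given, and with 1 library left out 3 or 4 were. The replicate number as a block gave 3919 called genes in place of 4076 and changed no call of a liprin, list or neighbor. Same-numbered libraries of the groups had deviations with correlations of -0.085, 0.077 and 0.036 across genes, so that the labels give only a shared number. Depth limits PPFIA4 in siControl, PPFIA2, PPFIBP2 and PTPRD, each at means under 20 counts in siControl.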
